A study of Mus musculus with 12 samples.

Results

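The comparison described here is that of wild-type (WT) mouse kidneys 24 h after ischemia-reperfusion injury (IRI) with WT kidneys after a sham operation. Its members were chosen by their labels alone, as 3 WT IRI and 3 WT sham samples, which makes 6 of the 12 samples of the series. The other 6 come from mice without Jaml, a gene for a leukocyte adhesion protein, and are used here in the choice of probes, in the shared estimate of the spread, in a test of the difference between genotypes and for a few values set beside those of WT. All mice were male, on a background that the series text writes as C57/6J, and no age was stated. The WT mice carry no engineered allele. For IRI the vessels of the kidneys on both sides were closed and later opened again. Closure lasted 40 min according to the design text but 30 min according to the treatment text, which leaves its length unsettled. The labels describe the 3 samples of a group as independent, so each array was taken as 1 mouse.

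Each kidney was measured on a one-colour Agilent array, where RNA labelled with the dye Cy3 lights up the probe it binds. A level in this text is the log2 processed signal of a gene's probe minus the 75th percentile of its array, so that 0 is a bright probe and -8 lies below the dimmest probes that stood well above background. A difference is IRI minus sham on this log2 scale, so that 1 is a 2-fold rise, and its error is the standard error of the limma fit with n = 3 per group. A gene passed the test when its Benjamini-Hochberg adjusted p from limma was under 0.05. Levels of different genes are not compared, since probes differ in brightness.

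Closing the renal artery starves the tubules of oxygen, and the proximal tubule, which depends on fat oxidation and does most of the reabsorption, suffers first. Surviving tubule cells are known to lose their brush border and transporters, to switch on stress and repair genes and to send out signals that draw in leukocytes. Injury is usually followed through a few marker genes, whereas the values below cover the other programs that moved.

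All 6 WT arrays lay on 1 slide, and the slide position read from the barcodes put the 3 sham arrays in row 1 and the 3 IRI arrays in row 2, so that slide row and treatment cannot be told apart. Between 63.2% and 66.7% of probes were well above background on these arrays. The kidneys of a group were not equally alike. Over 22131 genes that were well above background on all 6 arrays, 152 differed by more than 2-fold between sham replicates 1 and 2, but 1015 between sham 1 and sham 3 and 1091 between sham 2 and sham 3. Among the injured kidneys, 625 genes differed by more than 2-fold between IRI 2 and IRI 3, against 4057 between IRI 1 and IRI 2 and 3067 between IRI 1 and IRI 3. IRI 1 therefore stood apart from the other injured kidneys, and sham 3 from the other sham kidneys.

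Of 25947 genes and transcripts tested, 3109 passed the test (12%). Of these, 1577 were higher after IRI (6.08%) and 1532 lower (5.9%). The difference was at least 2-fold for 795 of the higher and 889 of the lower genes, and at least 8-fold for 81 and 96. All IRI values lay on one side of all sham values in 3072 of the 3109 genes, and in 32.3% of all genes tested (17.2% higher, 15.1% lower). The fit over the 6 WT arrays alone, with 4 residual degrees of freedom in place of 8, called 417 genes (1.61%, with 204 or 0.786% higher and 213 or 0.821% lower), of which 398 were also called over 12 arrays. When each WT array was left out in turn, the count ran from 846 without sham 2, 861 without sham 1 and 1205 without IRI 3 to 4675 without IRI 2. No called gene changed sign in any of these 6 fits. For the 3072 genes whose groups did not overlap, leaving out 1 array could not change the sign. Of the called genes, 706 (385 higher, 321 lower) were called in all 6 fits. The counts of the gene lists below move in the same way, and values without single arrays stand beside them. Those fits still use the knockout arrays for the spread. Over the 6 WT arrays alone, no T and NK cell, mitosis, interferon response, ribosome biogenesis, proteasome, brush border or fasting list member was called. In the same fit 1 antigen presentation gene fell, while 6 proteases and inhibitors and 5 erythroid markers rose.

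Among the genes that rose most, outside the usual injury markers, were chemokine genes that were near background in sham kidneys. Cxcl3, a chemokine that attracts neutrophils, had levels of -8.17, -8.47 and -8.28 in the sham kidneys and of -3.57, -2.09 and -1.51 in the injured ones. The sham arrays did not rise above background for this probe, so the rise is a bound, at least 12.3-fold (adjusted p = 0.000303, limma). Its neighbour Cxcl2, also a neutrophil attractant, rose at least 2.67-fold, with sham levels of -8.16, -8.45 and -8.27 and IRI levels of -3.86, -4.99 and -4.94. Cxcl5, another attractant of this family, stood at -6.76, -6.72 and -5.47 in sham kidneys and at -2.90, -1.02 and -1.88 after IRI (adjusted p = 0.00376, limma). Only 1 of 3 sham arrays was well above background for Cxcl5, so no size is given.

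Bases just before the annotated starts of Cxcl2 and Cxcl3, and of the matrix metalloproteinase genes below, are shown because Cxcl2, Cxcl3 and 3 of those 4 metalloproteinase genes hold a short element of a stress-activated factor there. The sequences are RefSeq promoters of mouse build GRCm38.p6, read 5′ to 3′ on the plus strand over the 100 bases before the start. Capitals mark matches to GGGANTTTC, a form of the NF-kappa-B element, searched on both strands. Cxcl2 lies at chr5:90903799-90903898 and Cxcl3 at chr5:90786001-90786100.
Cxcl2: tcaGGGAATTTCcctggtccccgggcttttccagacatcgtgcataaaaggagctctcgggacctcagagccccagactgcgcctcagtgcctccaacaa
Cxcl3: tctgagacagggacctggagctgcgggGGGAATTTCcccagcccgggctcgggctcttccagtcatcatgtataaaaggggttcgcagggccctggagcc
The matches began 97 bases before the start of Cxcl2 and 73 bases before that of Cxcl3. This element stood within 250 bases before the start of 0.898% of 14584 promoters, of 1.5% of the 1002 promoters of higher genes and of 0.905% of the 994 promoters of lower genes. A match describes letters and not binding.

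The AP-1 group of regulators rose in the injured kidneys. AP-1 is a pair of Fos and Jun proteins that binds DNA soon after stress. Fosl1, a Fos family member, stood at -5.85, -6.02 and -5.62 in sham kidneys and at 0.24, -0.76 and -0.42 after IRI. The groups were far apart, with a difference of 5.52 ± 0.73 (adjusted p = 0.00309, limma), although the probe was well above background on 2 of 3 sham arrays. Of 22 measured immediate early genes, 10 rose and none fell, with a median difference of 1.12 against -0.01 over all genes. The count fell to 2 without sham 2, to 3 without sham 1 or IRI 3 and to 6 without IRI 1. Fos went from -2.35, -2.07 and -1.74 to 1.83, -0.33 and 1.05, and Junb, a Jun family partner, differed by 1.83 ± 0.40. Members of this list were highest in IRI 1, where their mean level, centred over the 6 arrays, was 1.36, against 0.03 in IRI 2, 0.63 in IRI 3 and -0.81 to -0.43 in the sham kidneys.

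Genes of growth factor signalling moved in part. Of 16 MAPK feedback genes 3 rose and none fell (median 0.23), and 5 rose without IRI 2. Of 13 EGF receptor ligands and receptors 2 rose and 1 fell (median 0.09). In that list no rise was called without sham 1 or IRI 3, 1 without sham 2 or IRI 1 and 4 without IRI 2, and no fall was called without sham 1, sham 2, sham 3 or IRI 3 and 3 without IRI 1. Dusp5, a phosphatase that switches off ERK, rose by 2.66 ± 0.32 (adjusted p = 0.002, limma), from -1.98, -2.09 and -2.14 to 1.08, 0.01 and 0.67. Areg, a ligand of the EGF receptor, rose at least 3.29-fold from background, whereas Egf, which the thick limb makes, fell by 1.09 ± 0.26. Of 25 growth factors and TGF-beta family genes, 7 rose and none fell, and 2 rose without sham 1, sham 2 or IRI 3. Among them were Grem1, an antagonist of bone morphogenetic proteins (at least 3.31-fold), Ccn1, a matricellular protein (1.67 ± 0.34), and Pdgfa (0.71 ± 0.15). Gdnf, the growth factor that induces ureteric branching in the embryonic kidney, was among the genes with the smallest p, at -5.88, -5.76 and -5.83 in sham kidneys and -4.12, -3.92 and -3.89 after IRI (difference 1.84 ± 0.14, adjusted p = 0.000303, limma). Its probe was well above background on 2 of 3 sham arrays.

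Of 17 genes of the interleukin-6 family and its STAT3 pathway, 6 rose and none fell, with a median of 0.74. Without sham 1 or sham 2 the rises were 2, and without IRI 3 they were 3, and the median ran from 0.25 without IRI 1 to 1.09 without sham 3. Clcf1, a cytokine of the family, rose by 2.37 ± 0.37 and Socs3, a feedback inhibitor, by 3.27 ± 0.63. Il6 itself went from -5.45, -5.68 and -8.28 to -2.53, -0.11 and -0.18. It was called (adjusted p = 0.0239, limma), but in 2 of the 6 fits that leave out an array, and 2 of 3 sham arrays were well above background.

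**Figure D1:**
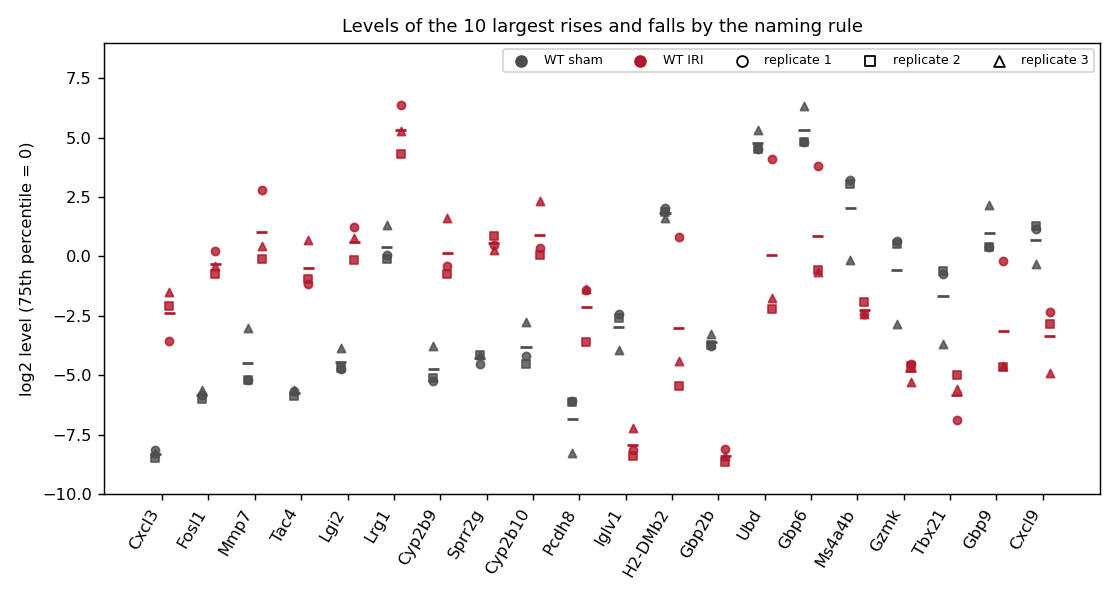
Level of the 10 genes with the largest rises and the 10 with the largest falls by the naming rule in each WT kidney, as log2 signal relative to the array's 75th percentile (grey: sham, red: IRI, marker shape: replicate, bar: mean of 3). Ubd, Gbp6, Gbp9 and H2-DMb2 were nearer to sham in IRI 1 than in IRI 2 and IRI 3, whereas Sprr2g was alike in all 3 injured kidneys. Gbp2b was not well above background in any injured kidney, so its likeness among them cannot be judged.

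Extracellular proteases were mostly higher. Of 29 measured proteases and inhibitors, 13 rose and 1, Mmp13, fell, with a median of 0.84, and 8 rose without sham 1 or sham 2. Mmp7 (matrilysin), an enzyme of injured epithelia, had levels of -5.19, -5.22 and -3.01 in sham kidneys and of 2.79, -0.11 and 0.44 after IRI. Mmp3 (stromelysin-1), which cuts many matrix proteins, stood at -4.44, -4.44 and -3.48 and then at -1.07, -1.26 and -0.85. Neither gene's groups overlapped, which for Mmp7 was part of the rule that named it. The differences were 5.51 ± 0.78 and 3.06 ± 0.34. Mmp10 was not above background in sham kidneys and rose at least 2.24-fold. Mmp8, the neutrophil collagenase, rose by 2.36 ± 0.48, and Adamts4, an enzyme that cuts aggrecan, by 3.09 ± 0.48. Mmp13 (collagenase-3) fell by 1.52 ± 0.37.

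Mmp3, Mmp10, Mmp8 and Mmp7 are tandem genes on chromosome 9 whose probes lie between 7455751 and 7699535 (mm9). They were picked as a run of adjacent genes called higher, so the rise of all 4 was part of the choice. Their upstream bases are shown because 3 of the 4 hold the AP-1 element TGANTCA, the site of the regulators described above. They come from the same RefSeq table and strand as the chemokines, over 100 bases, with the match in capitals. The windows are chr9:7445722-7445821 for Mmp3, chr9:7502242-7502341 for Mmp10, chr9:7691990-7692089 for Mmp7 and chr9:7558329-7558428 for Mmp8 (GRCm38.p6).
Mmp3: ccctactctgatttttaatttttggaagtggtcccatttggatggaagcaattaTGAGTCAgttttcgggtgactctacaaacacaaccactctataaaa
Mmp10: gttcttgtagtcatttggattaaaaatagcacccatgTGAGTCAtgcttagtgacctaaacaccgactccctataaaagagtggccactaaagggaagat
Mmp7: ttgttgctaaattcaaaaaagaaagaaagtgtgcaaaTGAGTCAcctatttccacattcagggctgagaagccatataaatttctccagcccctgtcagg
Mmp8: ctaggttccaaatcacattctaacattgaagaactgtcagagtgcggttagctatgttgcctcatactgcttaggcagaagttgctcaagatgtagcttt
The element began 46 bases before the start in Mmp3 and 63 bases before it in Mmp10 and Mmp7, with no match in the 250 bases before Mmp8. Over 14584 promoters 5.29% held it, against 7.29% of the 1002 promoters of higher genes and 4.73% of the 994 of lower genes. The element of interferon-regulated genes, TTCNNTTTC, ran the other way, in 4.89% of higher, 10.6% of lower and 6.51% of all promoters. The E-box CACGTG was found in 6.39%, 9.15% and 7.58% of them. More elements were searched than are described here. In the same order, the antioxidant element TGACNNNGC was in 13.9%, 10.5% and 11.5%, and the C/EBP element TTGCNNAA in 9.18%, 9.15% and 8.3%. The TATA box was in 10.3%, 10.2% and 8.9%. Elements named CRE, ATF4, serum response, HNF1 and HNF4 were searched too.

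Other runs of neighbouring genes were picked in the same way. Among runs of at least 4 adjacent genes called in the same direction were the serine protease inhibitors Serpina3j, Serpina3k, Serpina3m and Serpina3n on chromosome 12. Serpina3m (4.02 ± 0.52) and Serpina3n (3.70 ± 0.83) were measured in both groups, while Serpina3j and Serpina3k were not well above background on any sham array. The cysteine protease inhibitors Stfa1, Cstdc5, Stfa2 and Stfa3 on chromosome 16 formed another run, where Cstdc5 rose by 2.59 ± 0.37 and Stfa2 by 2.61 ± 0.35, and Stfa1 and Stfa3 were not well above background on any sham array. Plin4, Plin5, Lrg1 and Sema6b on chromosome 17 had a median difference of 2.79. Plin4 and Plin5 coat lipid droplets, and Lrg1 is a secreted glycoprotein that went from 0.05, -0.10 and 1.30 to 6.36, 4.33 and 5.29. Members of a family can share probe sequence, so the values of tandem copies are not independent of each other.

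**Figure D2:**
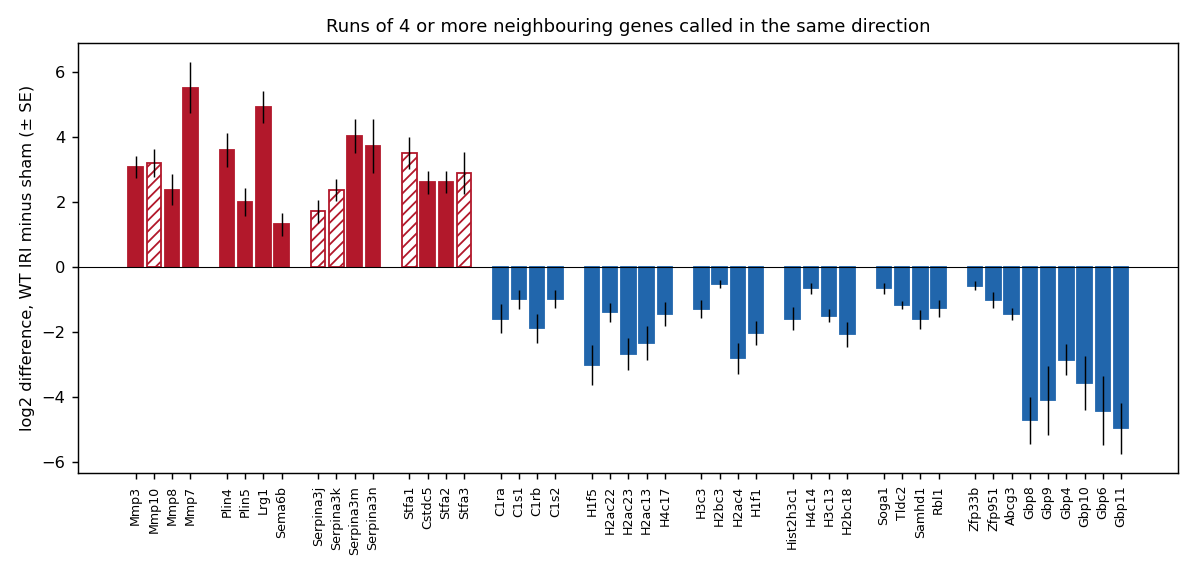
Difference of WT IRI minus WT sham, in log2 units with its standard error (n = 3 per group), for each gene of the runs of at least 4 neighbouring genes that were called in the same direction. Red bars are higher and blue bars lower after IRI, and hatched bars (Serpina3j, Serpina3k, Stfa1, Stfa3, Mmp10) are fitted differences of genes that were not well above background on any sham array. The Gbp run reached -4.98 at Gbp11 and the matrix metalloproteinase run 5.51 at Mmp7.

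Structural genes of the epithelium rose by smaller amounts. Of 28 actin, annexin and intermediate filament genes 12 rose and none fell (median 0.56), and 6 rose without sham 2 and 7 without IRI 3. Krt19, a keratin of simple and ductal epithelia, stood at -0.24, -1.66 and -0.29 in sham kidneys and 1.75, 1.15 and 1.22 after IRI. Krt8 (1.35 ± 0.20), the membrane-binding Anxa3 (1.28 ± 0.20) and the annexin partner S100a10 (1.20 ± 0.20) rose too. Of 11 tubulins 5 rose (median 0.69), Tubb6 by 1.73 ± 0.28, but only 1 without sham 1, sham 2 or IRI 3 and 3 without IRI 1. Of 18 integrins and adhesion genes 7 rose and none fell, and 4 rose without sham 1 or sham 2. Sdc1 (syndecan-1), a cell-surface proteoglycan, was among the most even of them, at -1.19, -1.52 and -1.30 against 0.61, 0.31 and 0.28 (difference 1.73 ± 0.16, adjusted p = 0.000571, limma). Plaur, the urokinase receptor, rose by 2.12 ± 0.29.

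Junction and matrix genes followed. Of 25 tight junction and cadherin genes, 6 rose and none fell, among them Cdh3 (P-cadherin, 1.17 ± 0.18) and the claudins Cldn3 (1.33 ± 0.25), Cldn7 (0.86 ± 0.20) and Cldn4 (1.82 ± 0.42). The count was 1 without sham 2, 2 without sham 3, 3 without sham 1 and 4 without IRI 1 or IRI 3. Of 34 collagens and matrix glycoproteins 8 rose and 1 fell, with 3 rises without sham 2, sham 3 or IRI 3 and 5 without sham 1. The basement membrane chains Col4a1 (0.96 ± 0.17) and Col4a2 (0.83 ± 0.13) were higher. Lama3, a laminin chain of epithelia, moved the other way, from 1.91, 1.74 and 1.85 to -0.33, 0.11 and -0.37 (difference -2.03 ± 0.16, adjusted p = 0.000303, limma).

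Genes for making ribosomes moved in one direction. Of 30 ribosome biogenesis genes 12 rose and none fell, with a median of 0.54, and in 20 of the 30 the injured kidneys all lay above the sham kidneys, against 17.2% of all genes tested. The calls depended on the arrays used, with 1 rise without sham 1 or sham 2, 2 without IRI 3, 7 without sham 3 and 21 without IRI 2, while the median stayed between 0.46 and 0.66. Rrp9 (0.61 ± 0.11), Nolc1 (0.77 ± 0.16) and Gar1 (0.82 ± 0.18), which process or modify ribosomal RNA, were among the risers. Of 24 proteasome subunits 5 rose and none fell (median 0.26), but none was called without sham 1 or sham 2, 1 without sham 3 or IRI 3 and 2 without IRI 1. Polyamine genes gave 4 rises of 13, and 2 without sham 1, sham 2 or IRI 3. Arg2, which makes ornithine from arginine, went from -1.74, -1.86 and -0.21 to 3.38, 1.99 and 3.20, and Smox, which oxidizes spermine, from -0.19, -0.20 and -0.14 to 2.50, 1.88 and 1.89 (difference 2.27 ± 0.19, adjusted p = 0.000362, limma).

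Stress responses were uneven. Of 26 Nrf2 targets and antioxidant enzymes 9 rose and 1 fell, with a median of 0.19, and 3 rose without sham 1 or sham 2 and 5 without IRI 3. Slc7a11, which imports cystine for glutathione, rose at least 4.65-fold from background, and Nqo1 (1.03 ± 0.20), Txnrd1 (1.05 ± 0.20) and Pgd (0.90 ± 0.16) rose as well. Sod2, the mitochondrial superoxide dismutase, fell by 0.79 ± 0.15. Of 25 genes of the unfolded protein and integrated stress responses 2 rose, Asns (asparagine synthetase, 1.25 ± 0.22) and Psat1 (1.71 ± 0.43). The median was -0.03, with 1 rise without sham 1, sham 2, IRI 1 or IRI 3. Of 22 cytosolic heat shock genes 2 rose and 1 fell, with 1 rise in each fit that leaves out an array other than IRI 2, and 3 falls without IRI 2. Both lists were near the shares over all genes, 6.08% higher and 5.9% lower. The small heat shock protein Hspb1 rose by 1.84 ± 0.27, whereas the cochaperone Dnaja1 fell by 0.66 ± 0.15. Of 24 genes of metal and heme handling 6 rose and none fell (2 without sham 2, 3 without sham 1), among them Trf, the iron carrier transferrin (2.35 ± 0.40), and Hp, which binds free hemoglobin, which varied between injured kidneys at 2.36, 5.16 and 1.44 against -1.25, -1.49 and -0.86.

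Of 17 epithelial defence proteins 7 rose and none fell (median 0.85). Saa2, an acute-phase protein, stood at -4.01, -4.07 and -0.07 in sham kidneys and at 4.90, 2.63 and 4.17 after IRI, so that sham 3 was above the other sham kidneys and below every injured one. Lgals3, a galectin of epithelia and macrophages, rose evenly, from 4.06, 4.10 and 3.91 to 5.86, 5.39 and 5.42 (difference 1.53 ± 0.16). Sprr2g, a cornified-envelope protein of stressed epithelia, rose by 4.83 ± 0.37 (adjusted p = 0.000303, limma), with sham levels of -4.53, -4.14 and -4.17 and IRI levels of 0.50, 0.88 and 0.27. All 3 injured kidneys were alike for this gene.

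Some of the smallest p values belonged to regulators and signalling genes. Hmga1, an architectural chromatin protein, was nearly the same in all kidneys of a group, at 3.50, 3.44 and 3.46 in sham and 5.65, 5.43 and 5.39 after IRI (difference 2.02 ± 0.12, adjusted p = 0.000167, limma). Hesx1, a homeobox gene of the forebrain and pituitary, stood at -2.67, -2.62 and -2.74 and then at 1.14, 0.01 and 0.61. Cited1, a coregulator found in nephron progenitors, stood at -3.73, -3.94 and -3.80 and then at -0.73, -1.57 and -1.34. Groups that do not overlap were part of the rule by which these genes were named. Tac4, a tachykinin peptide gene (5.26 ± 0.49), Chrna2, a nicotinic receptor subunit (2.66 ± 0.20), and Lgi2 (5.06 ± 0.49) rose as well. Gsdma, a gasdermin, rose at least 10.4-fold from background.

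**Figure D3:**
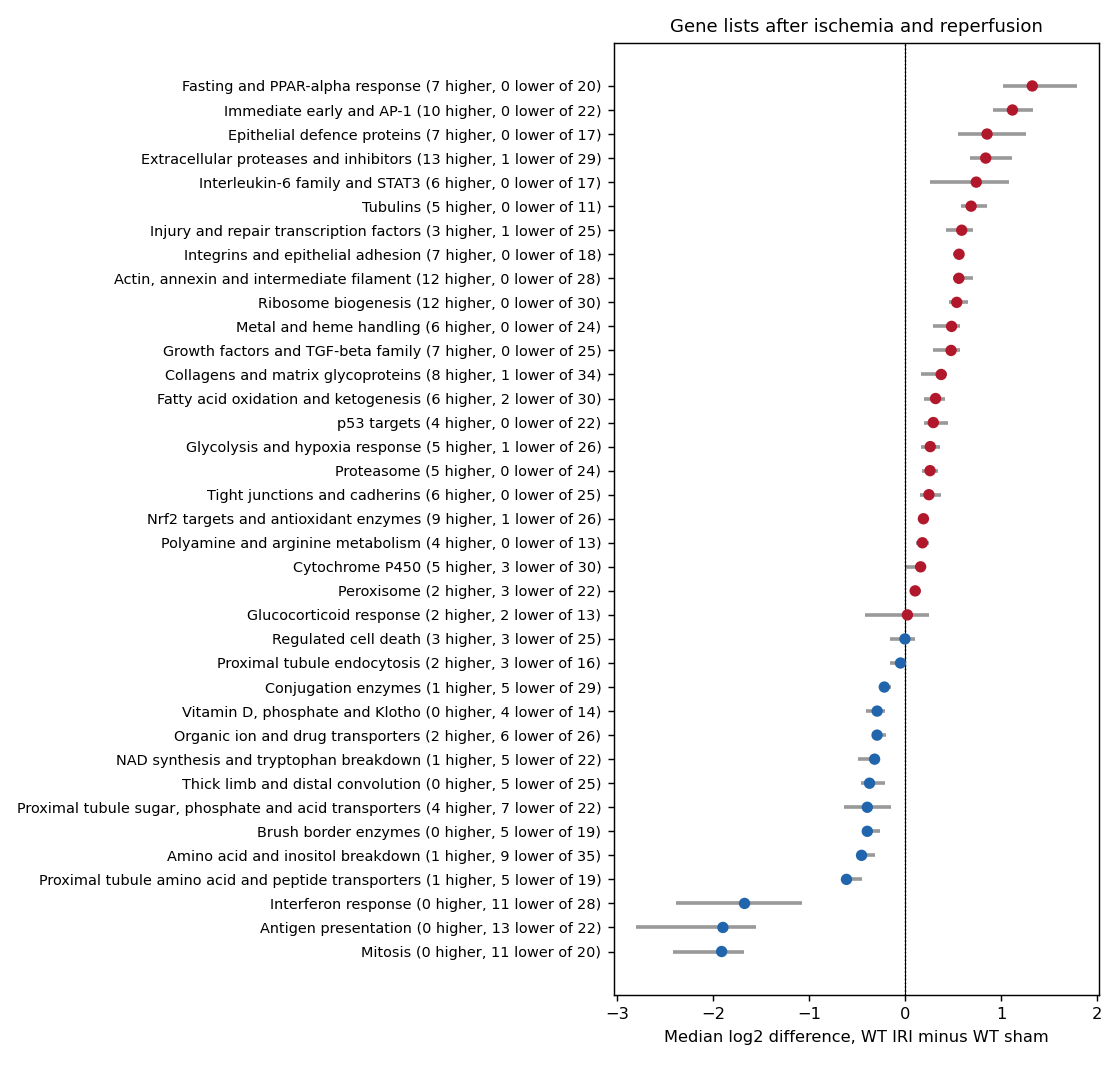
Median difference of WT IRI minus WT sham (log2) of each gene list with at least 4 called members that is not a cell marker list (red: above 0, blue: below 0), with its range over the 6 fits that leave out 1 WT array (grey line); the dotted line is the median of all genes, -0.01. The counts called higher and lower stand beside each name, and the lowest medians were those of mitosis (-1.91), antigen presentation (-1.90) and interferon response (-1.67). The lists of antigen presentation, interferon response and fasting and PPAR-alpha response were added after their values were seen.

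Metabolic genes split by pathway. Of 30 genes of fat oxidation and ketogenesis 6 rose and 2 fell, with 1 rise without sham 1, sham 2 or IRI 3 and 11 without sham 3. Acaa1b, a peroxisomal thiolase, rose from 3.90, 4.02 and 4.36 to 5.03, 5.20 and 5.89, and Ehhadh, another peroxisomal enzyme, by 1.32 ± 0.29, while Ppargc1a, the coactivator that drives mitochondrial genes, fell by 1.13 ± 0.25. The list of 20 genes of the fasting and PPAR-alpha response was added after their values were seen. Of these genes 7 rose and none fell (median 1.33), with 1 rise without sham 1, sham 2 or IRI 3 and 12 without sham 3. Their mean, centred over 6 arrays, was -1.26 and -1.34 in sham 1 and 2, 0.51 in sham 3 and 1.24, 0.05 and 0.80 in the injured kidneys. Plin2, which coats lipid droplets, differed by 2.65 ± 0.59 and Ucp3, a mitochondrial carrier, by 2.47 ± 0.37.

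The respiratory chain moved little. Of 23 measured genes of oxidative phosphorylation 1 fell and none rose (median -0.10). Of 23 genes of the tricarboxylic acid cycle 2 fell and none rose (median -0.12), with 1 fall without any 1 sham array or IRI 3 and 3 without IRI 1. Both counts of falls were near the share over all genes, 5.9% lower. Of 26 genes of glycolysis and the hypoxia response, 5 rose and 1 fell. Hk2, a hexokinase of injured and growing cells, went from -3.39, -3.66 and -4.00 to -1.74, -0.91 and -1.31, and the glucose carrier Slc2a1 and the lipid droplet protein Hilpda rose by 1.22 ± 0.19 and 2.29 ± 0.31. Car9, a carbonic anhydrase that hypoxia induces in many cells, moved against them, with a difference of -1.40 ± 0.30. The rises numbered 3 without sham 1, sham 2, sham 3 or IRI 3, and 8 without IRI 1.

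Breakdown of amino acids was lower. Of 35 genes 9 fell and 1 rose (median -0.45), with 1 fall without sham 2, 2 without sham 1, 3 without IRI 3 and 5 without sham 3. Glyat, which conjugates glycine, was almost identical within groups, at 4.85, 4.83 and 4.83 and then 4.23, 4.24 and 4.23. The riser was Glud1, glutamate dehydrogenase (0.94 ± 0.18). Of 22 genes of NAD synthesis and tryptophan breakdown 5 fell and 1 rose, with 3 falls without sham 1, sham 2 or IRI 3 and 8 without IRI 2. Qprt, which uses quinolinate on the way to NAD, fell from 3.62, 3.69 and 3.58 to 2.62, 2.53 and 2.37. Acmsd (-2.09 ± 0.38) and Kynu (-2.56 ± 0.49), other enzymes of tryptophan breakdown, fell too. Of 27 sterol and fatty acid synthesis genes 3 fell and none rose, against 5.9% of all genes lower, with a median of -0.24, 10 differences above 0, and 6 falls without sham 3. Among those that fell were Sqle (-0.95 ± 0.13) and Cyp51 (-1.56 ± 0.32), enzymes of cholesterol synthesis.

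Drug-metabolizing genes moved both ways. Of 30 cytochrome P450 genes 5 rose and 3 fell, with 3 rises and 1 fall without sham 1, sham 2 or IRI 3. Cyp2b9 and Cyp2b10, which are targets of the xenobiotic receptor CAR in liver and may share signal as close relatives, rose by 4.87 ± 0.58 and 4.75 ± 0.60. Cyp24a1, which destroys active vitamin D, went from 1.55, 1.44 and 2.27 to 4.43, 3.87 and 4.63. Cyp1a1 fell by 2.51 ± 0.48, with 2 of 3 IRI arrays well above background. Of 29 conjugation enzymes 5 fell, among them Gstt1 (-0.71 ± 0.11), and 1 rose, with 1 fall without sham 1, sham 2 or IRI 3 and 3 without sham 3.

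Transport genes of the proximal tubule were lower on the whole. Of 22 sugar, phosphate and acid transporters 7 fell and 4 rose, but no fall was called without sham 1 or sham 2 and 2 without IRI 3, with 2 rises in each of these fits. Slc34a1, the main sodium-phosphate carrier of the brush border, fell from 7.57, 7.68 and 7.51 to 6.98, 6.70 and 5.98, whereas the widely expressed phosphate carriers Slc20a1 (1.57 ± 0.29) and Slc20a2 (0.88 ± 0.15) rose. Of 19 amino acid and peptide transporters 5 fell and 1 rose (median -0.61, with 2 falls without sham 1 or IRI 3, 3 without sham 2 and 8 without IRI 2), among them Slc7a7 (-1.26 ± 0.18) and Slc7a13 (-1.27 ± 0.19). Of 26 organic ion and drug transporters 6 fell and 2 rose, and none was called without sham 1, sham 2 or IRI 3 and 2 falls without sham 3. One of these, Slc17a3, lost its fall when the mean of all its kept probes was used, at 0.01. The endocytic receptors Lrp2 (megalin, -0.81 ± 0.15) and Cubn (cubilin, -0.57 ± 0.12) fell, as did 5 of 19 brush border genes with none rising, of which 1 was called without sham 2 and 2 without sham 1 or IRI 3. In whole tissue, fewer cells of a type and less RNA per cell cannot be told apart.

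Some genes of distal segments and of the hormone axis of phosphate were lower too. Kl (klotho), the co-receptor for FGF23, stood at 5.21, 5.30 and 4.68 in sham kidneys and 3.19, 4.10 and 3.48 after IRI (difference -1.47 ± 0.25, adjusted p = 0.00802, limma). Of 14 genes of vitamin D, phosphate and klotho 4 fell and none rose, with 1 fall without sham 1 or sham 2 and 2 without IRI 1 or IRI 3. Of 25 thick limb and distal genes 5 fell and none rose (1 without sham 1 or sham 2, 3 without IRI 3), among them Pvalb, the parvalbumin of the distal convoluted tubule (-2.02 ± 0.45), and the magnesium transporter Cnnm2 (-0.90 ± 0.17). Of 22 collecting duct genes 2 fell and none rose (median -0.36), against 5.9% of all genes lower, with 1 fall without sham 1 or sham 2 and 7 without IRI 2. One of them, Slc26a4 (pendrin), the chloride-bicarbonate exchanger of intercalated cells, fell from 4.52, 4.64 and 4.54 to 3.83, 3.60 and 3.70. Of 16 podocyte genes 3 fell and none rose, with no fall without sham 2 and 1 without sham 1, sham 3 or IRI 3. None of 14 pericyte and fibroblast genes passed, the nearest being Pdgfrb at 0.91 ± 0.31 (adjusted p = 0.0807, limma). None of 20 Wnt and Notch genes passed either, the nearest being Wnt5a at 0.64 ± 0.23 (adjusted p = 0.0996, limma).

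Dividing-cell genes were lower at 24 h. Of 20 mitosis genes 11 fell and none rose, with a median of -1.91. The count was 1 without sham 1 or sham 2, 2 without IRI 3 and 19 without IRI 1. Top2a, which untangles DNA at mitosis, stood at 1.03, 0.98 and -0.13 in sham kidneys and at -0.65, -2.34 and -2.60 after IRI. Of the pairs of a sham and an injured kidney, sham 3 and IRI 1 lay nearest to each other. The same held for the list's mean, which was 1.31, 1.31 and 0.24 in sham and 0.13, -1.55 and -1.44 in IRI kidneys. Histone genes of the replication-dependent kind, which are transcribed in S phase and were looked at after runs of them were seen among the calls, gave 24 falls and no rise among 47 genes (median -0.73). Their mean was 0.57, 0.65 and 0.17 in sham kidneys and -0.37, -0.68 and -0.34 in injured ones, and 5 were called without sham 1, 6 without sham 2 and 14 without IRI 3. In the G1 and DNA replication list 1 of 20 fell and none rose, against 5.9% of all genes lower. Its median of -0.11 was -0.59 without sham 3 and 0.04 without sham 1, and 3 fell without sham 3 or IRI 2 and none without sham 1, sham 2 or IRI 3.

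**Figure D4:**
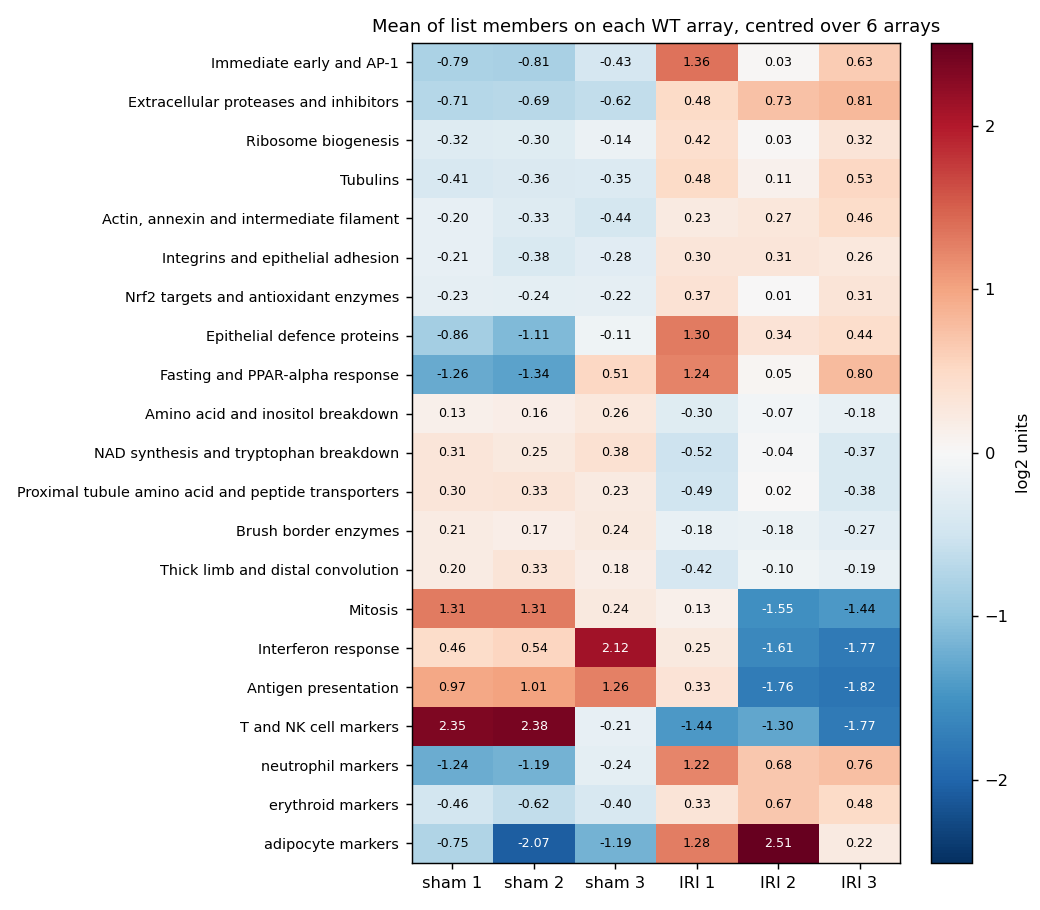
Mean of the members of 21 gene and marker lists on each of the 6 WT arrays, in log2 units, after each gene was centred on its mean over the 6 arrays (red: above, blue: below). Interferon response and antigen presentation were at 0.25 and 0.33 in IRI 1 and between -1.82 and -1.61 in IRI 2 and IRI 3, whereas T and NK cell markers were at -1.77 to -1.30 in all injured kidneys and at -0.21 in sham 3.

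T and NK cell markers had the lowest median of the 76 lists. Of 15 T and NK cell markers 13 fell and none rose, with a median of -3.26. Cd3g, a chain of the T cell receptor complex, stood at 0.09, 0.08 and -3.01 in sham kidneys and at -5.28, -4.81 and -5.57 after IRI, and Cd2 at 0.96, 1.08 and -1.90 against -3.38, -3.88 and -4.42. Sham 3 lay between the other sham kidneys and the injured ones in both. Without sham 1 or sham 2, 5 of the 15 markers were called, and without IRI 3, 6 were, while the list's median stayed between -4.34 and -2.75. Ms4a4b (-4.29 ± 0.78), Gzmk (-4.25 ± 0.78), a granzyme, and Tbx21 (-4.14 ± 0.87), the regulator of type 1 T cells (2 of 3 IRI arrays well above background), fell with them. Of 7 B and plasma cell markers only Jchain fell, by 3.37 ± 0.81, and none rose (median -0.70), with no fall without sham 1, sham 2 or IRI 3 and 4 without IRI 2. Iglv1, an immunoglobulin light chain gene outside that list, was at least 9.32-fold lower.

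Myeloid genes went both ways. Of 12 measured neutrophil markers 6 rose and 1, Ly6g, fell, with 2 rises without sham 1 or sham 2 and 3 without IRI 3. S100a9 stood at 0.95, 0.94 and 2.94 in sham kidneys and 4.72, 5.24 and 4.91 after IRI, and Retnlg rose by 3.83 ± 0.59. The granule genes Camp and Ltf, named after their values were seen, were high in IRI 1 alone, with Camp at 0.01 against -4.25 and -3.96 in IRI 2 and IRI 3. Of 16 macrophage and monocyte markers 6 fell and 2 rose, with 1 fall without sham 1 or sham 2 and 2 without IRI 3. Aif1 (-1.78 ± 0.30), Itgam (-1.75 ± 0.41), C1qc (-0.95 ± 0.20) and Csf1r (-0.66 ± 0.13) fell, whereas Cd68, a lysosomal protein (1.46 ± 0.34), and Cd14, a lipopolysaccharide co-receptor (2.91 ± 0.80), rose. Clec9a, a receptor of cross-presenting dendritic cells, fell from -1.31, -1.26 and -1.53 to -4.73, -4.26 and -5.18.

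Interferon and antigen presentation genes were lower on average, but not in every injured kidney. Interferon-induced guanylate-binding proteins and the class II molecules of antigen-presenting cells make up much of these lists. Of 28 interferon response genes 11 fell and none rose (median -1.67), and of 22 antigen presentation genes 13 fell and none rose (median -1.90). Both lists were chosen after values of their members were seen. Without IRI 1 the counts were 15 and 21. They were 2 and 3 without sham 1 or IRI 3, 1 and 3 without sham 2, 6 and 5 without sham 3, and 4 and 6 without IRI 2. Ubd, an interferon-induced ubiquitin-like protein, stood at 4.53, 4.53 and 5.32 in sham kidneys and at 4.11, -2.20 and -1.74 after IRI, so its difference of -4.74 ± 1.36 (adjusted p = 0.048, limma) rests on IRI 2 and IRI 3. H2-Aa, a class II chain, was at 4.78, 4.81 and 4.38 in sham and at 3.99, 0.17 and 0.54 in injured kidneys. Gbp2, at 6.87 in IRI 1 and 1.49 and 1.35 in IRI 2 and IRI 3, did not pass (adjusted p = 0.116, limma), with sham levels of 5.86, 5.79 and 7.73. IRI 1 was thus within the sham range for Gbp2.

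Other interferon-linked genes fell in all 3 injured kidneys. Gbp2b went from -3.78, -3.73 and -3.26 to -8.12, -8.66 and -8.41, which is at least 6.15-fold lower (adjusted p = 0.000492, limma). Cxcl9, a chemokine that attracts T cells, went from 1.17, 1.27 and -0.34 to -2.32, -2.83 and -4.90. Ciita, the master regulator of class II genes, stood at 2.51, 2.61 and 4.61 and then at 0.75, -0.77 and -1.32. A run of 9 adjacent called genes on chromosome 5 held Gbp8, Gbp9, Gbp4, Gbp10, Gbp6 and Gbp11 beside Zfp33b, Zfp951 and Abcg3, with a median of -3.59. Gbp6 was at 3.83 in IRI 1 and at -0.57 and -0.64 in the other injured kidneys, against 4.80, 4.81 and 6.32 in sham. The complement genes C1ra, C1s1, C1rb and C1s2 on chromosome 6 formed another lower run (median -1.31), again with IRI 1 nearest to sham.

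**Figure D5:**
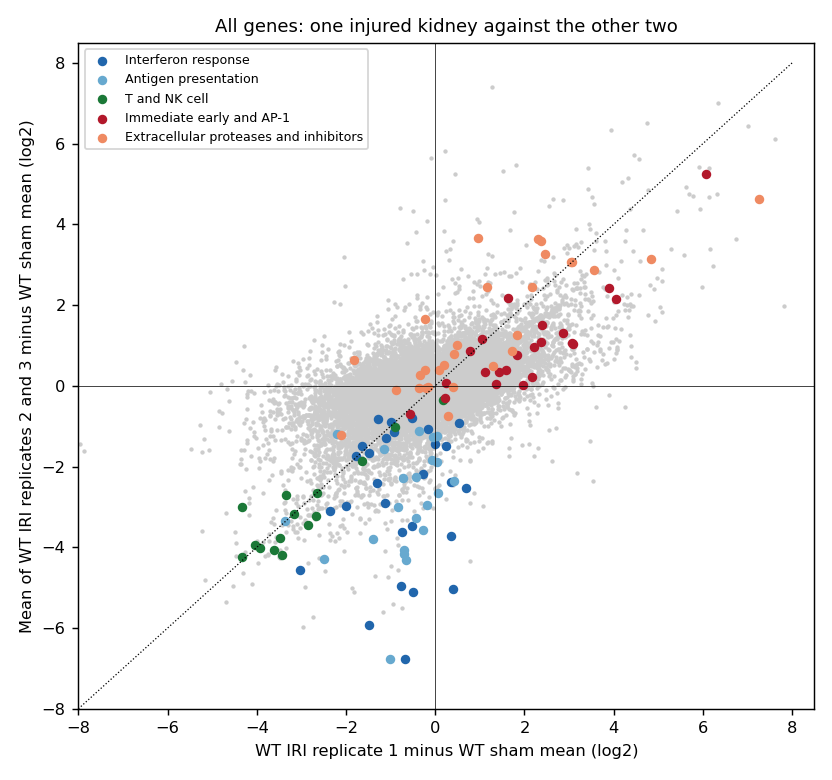
Each gene's level in WT IRI replicate 1 (x axis) and its mean in replicates 2 and 3 (y axis), both as log2 difference from the mean of the 3 WT sham kidneys, with members of 5 lists in colour. Both axes share the sham mean and the dotted line marks equal values. Ubd lay low on the y axis only, while T and NK cell markers were low on both axes.

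IRI 1 also differed in tubule genes chosen after their values were seen. Gatm, which makes guanidinoacetate in the proximal tubule, was at -0.79 in IRI 1 against 3.34 and 2.07 in IRI 2 and IRI 3 and 4.83, 4.84 and 3.20 in sham. Slc2a2, its basolateral glucose carrier, was at -1.55 in IRI 1 against 1.83 and 1.64 in the other injured kidneys. Il11, a cytokine of the interleukin-6 family, ran the other way, at -2.14 against 2.46 and 0.85. The 546 genes that were higher in injured than in sham knockout kidneys, which are other mice, were higher in each WT injured kidney. Their medians there, relative to the WT sham mean, were 0.95, 0.80 and 1.08. Each WT sham kidney was set against the mean of the other WT sham kidneys instead, which gave -0.12, -0.12 and 0.23. For the 1052 genes lower in injured than in sham knockout kidneys, the injured WT kidneys had medians of -0.61, -0.50 and -0.60. The WT sham kidneys, each again set against the others, had 0.06, 0.11 and -0.16. All 3 injured WT kidneys thus lay on the same side of sham for these genes.

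Markers of other sources moved with the groups. Adipocyte markers gave 3 rises of 10, Cidec (5.64 ± 0.51), Plin1 (at least 18.1-fold) and Fabp4 (1.40 ± 0.26), and their mean level was 1.28, 2.51 and 0.22 in injured kidneys and -0.75, -2.07 and -1.19 in sham. Of 9 measured erythroid markers 5 rose and none fell (3 fell without IRI 2), with the globin gene Hba-a1 at 2.88, 2.91 and 3.45 and then 6.26, 5.36 and 5.66. The list's mean was 0.33, 0.67 and 0.48 against -0.46, -0.62 and -0.40. Globin copies are near identical and share probe signal. Of 8 urothelial markers 2 fell, and their mean, 0.67, -0.33 and 0.82 in sham and -0.42, -0.05 and -0.69 after IRI, overlapped between groups. The part of these cells in the differences above was not tested.

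Between the genotypes, 18 genes (0.0694%) differed in their response by limma's interaction test, Cxcl2 and Cxcl3 among them. On all 6 knockout arrays both lay below every signal that was well above background. Jaml was at -0.26, -0.26 and -0.44 in sham and at 0.55, -1.80 and -1.64 in injured WT kidneys. The groups overlapped, and its difference of -0.64 ± 0.56 did not pass (adjusted p = 0.48, limma).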

How the data were processed

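The deposited scanner files hold one intensity per spot, background-corrected within each array by the software that the file headers name as Feature Extraction (version 10.7.1.1). A deposited table holds the authors' log2 values, for which the submitters' processing notes name limma; it served as an alternative. Control spots and outlier spots were left out, the processed intensity was taken to log2 and reduced by its array's 75th percentile, and probes well above background on at least 3 of 12 arrays were kept, with the brightest probe standing for a gene. Probe coordinates are on mm9. Limma 3.58.1 in R 4.3.3 fitted 4 groups over 12 arrays, two-sided, with Benjamini-Hochberg adjustment over 25947 genes; the fit was tested on simulated data. Precision is limited by 3 arrays per group, where an exact permutation test cannot go below 0.1. The comparison and lists were chosen with earlier results of these data known, and the lists of interferon response, antigen presentation, and fasting and PPAR-alpha genes were added after their values were seen. Outside the lists, named genes are the 15 largest rises and falls and the 10 smallest p values each way, among called genes with ordinary symbols and groups that do not overlap, well above background in all 3 kidneys of the higher group, and without a set of usual injury markers and genes reported before on these data; in each list, up to 4 called members each way. A bound replaces a dim probe's signal with the array's lowest signal well above background wherever that is brighter.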

Additional observations from a re-analysis of the deposited data

Results flagged for a closer look

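For 11 of the genes named by the rule, the response to IRI differed between WT and knockout mice by limma's interaction test at an adjusted p under 0.05; over all genes, 18 of 25947 did (0.0694%). The interaction is the knockout response minus the WT response. Each genotype lay on its own slide, so a shift shared by all arrays of a slide cancels. Other differences between the slides cannot be told apart from genotype. The layouts differed too, since all WT IRI arrays lay in row 2, while knockout IRI 1 lay in row 1 with the knockout sham arrays. It was negative for Cxcl3 (-6.25), Crtac1 (-4.72), Cyp24a1 (-4.10), Cxcl2 (-4.03), Gsdma (-3.13), Cited1 (-2.47), Hpcal4 (-2.46) and Hmga1 (-1.43), all of which rose in WT. It was positive for Gpr33 (3.17), Plaat3 (1.16) and Hyls1 (1.15), which fell in WT. The values of Cxcl3, Crtac1, Cxcl2 and Gsdma rest on WT sham arrays that all read background for these probes, and that of Gpr33 on such WT IRI arrays, so they give no size. The responses of knockout kidneys were -1.55 for Cyp24a1, 0.14 for Cited1 and 0.59 for Hmga1. The cause of these differences was not tested.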

How the results depend on the processing

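The 3109 calls (1577 higher, 1532 lower) became 417 (204 and 213) over the 6 WT arrays alone, and 8932 (4465 and 4467) with array weights. Leaving out 1 WT array gave 846 to 4675 calls, 456 to 2392 higher and 389 to 2283 lower. The labels describe the samples as independent. The deviations of same-numbered sham and IRI arrays correlated at -0.15, 0.15 and 0.08. With 3 arrays per group such correlations depend on each other, so they cannot decide whether the replicate numbers pair the samples. With the number as a replicate block the 12-array fit called 2484 genes, and the block over 6 WT arrays 7 (6 and 1). The other alternatives gave 2230 to 3620 calls. With array weights, the median of the proximal tubule endocytosis list was 0.037 against -0.05, and it ran from -0.16 without IRI 3 to 0.011 without IRI 1. That of the insulin-like growth factor list ran from -0.29 without IRI 1 to 0.0054 without IRI 2. With the mean of all kept probes, Slc17a3 was at 0.012 and Cela1 at 0.59, both falls otherwise. Of 291 named genes past the threshold, 81 kept their call over the 6 WT arrays alone, and 134 to 275 when 1 array was left out. A gene that read background throughout its lower group has no measured size, and the list medians include fitted differences of such genes.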
